A study of Homo sapiens with 10 samples.

Results

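A set of 97 genes was higher with siRNA against ID1 than with control siRNA in every matched pair of arrays, in 2 human non-small cell lung carcinoma lines. A gene was taken if its brightest probe set reached a mean log2 signal of 6.06 over the 10 arrays and if its ID1 siRNA array was at least 1.5-fold (log2 0.585) above its matched control siRNA array in each of 4 pairs. The pairs are A549 with nicotine, A549 with EGF, H1650 with nicotine and H1650 with EGF. Of 12514 genes past the signal filter, 103 met this rule, or 0.823%, and 96 were lower by the same margin in all 4 pairs, or 0.767%. MMP3, IGFBP3, SLC2A3, MUC1, PHGDH and STC2 also met it and are not described here, which leaves the 97. LINC01279 is listed by RefSeq as another name of CCDC80, so these are probably 96 distinct genes.

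A549 carries a mutated K-Ras and H1650 a mutated EGFR, per the labels. Each line had 5 arrays, all of cells starved of serum for 48 h: control siRNA with no stimulus, control siRNA with 1 µM nicotine, ID-1 siRNA with nicotine, control siRNA with 100 ng/ml EGF, and ID-1 siRNA with EGF. Stimulation lasted 18 h. There was 1 array per line and condition, the labels name no separate cultures, and no unstimulated array with ID1 siRNA was used here. The sequence of the ID1 siRNA is not given in the sources used here.

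ID1 is a helix-loop-helix protein without a DNA-binding basic region. It pairs with E proteins and related basic helix-loop-helix factors and keeps them from binding E-boxes, short sites of the form CANNTG. In epithelial tumours ID1 is known for promoting proliferation and invasion, and in lung cancer lines it has been studied downstream of nicotinic and EGF receptors.

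The targeted gene was lower on each ID1 siRNA array. Its signal went from 3720 to 1343 with nicotine and from 3049 to 1343 with EGF in A549, and from 4964 to 881 and from 5121 to 1031 in H1650. The unstimulated control arrays had ID1 signals of 1645 in A549 and 5030 in H1650, so that A549 array lay near its ID1 siRNA arrays while the H1650 array lay with its stimulated controls. Array medians were between 61.2 and 79.6. Of 10 epithelial markers 8 were above the array median on all 10 arrays. Of 12 measured markers of blood, endothelial and fibroblast cells, PECAM1 and COL1A1 were above it on all 10 arrays and DCN on 9. CD14 was above it on 3, CD3E and CDH5 on 2, VWF on 1, and PTPRC, COL1A2, PDGFRB, LUM and PDGFRA on 0. The summed signal of these 12 was 795 to 1226 on the stimulated controls and 1355 to 1730.4 on the ID1 siRNA arrays, and its part in the results was not tested. COL1A1 alone had 223 to 534 on the stimulated controls and 590 to 998 on the ID1 siRNA arrays. These are bulk lysates, in which fewer cells of a kind and less RNA per cell cannot be told apart.

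Because ID1 acts through E-box binding factors, the start-site regions of the 4 genes with the largest smallest change and an entry in the RefSeq promoter table (GRCh38.p14) are shown, from 250 bases before the start to 50 after it. Capitals mark each CANNTG, a pattern that reads the same on both strands. CCDC80 is at chr3:112641094-112641393 on the minus strand, MAMDC2 at chr9:70043331-70043630, FLRT2 at chr14:85529894-85530193 and AOX1 at chr2:200585764-200586063, the last 3 on the plus strand.
CCDC80: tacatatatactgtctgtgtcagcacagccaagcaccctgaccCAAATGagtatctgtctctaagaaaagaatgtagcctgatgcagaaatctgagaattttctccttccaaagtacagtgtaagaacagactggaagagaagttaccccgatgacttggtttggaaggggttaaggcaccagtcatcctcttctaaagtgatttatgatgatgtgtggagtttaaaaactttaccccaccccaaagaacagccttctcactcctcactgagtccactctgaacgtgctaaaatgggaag
MAMDC2: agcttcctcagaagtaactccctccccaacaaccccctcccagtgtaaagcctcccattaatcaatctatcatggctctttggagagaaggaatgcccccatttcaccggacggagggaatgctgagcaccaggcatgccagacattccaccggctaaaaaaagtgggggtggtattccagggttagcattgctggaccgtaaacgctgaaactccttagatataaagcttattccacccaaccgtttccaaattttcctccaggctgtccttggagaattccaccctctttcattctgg
FLRT2: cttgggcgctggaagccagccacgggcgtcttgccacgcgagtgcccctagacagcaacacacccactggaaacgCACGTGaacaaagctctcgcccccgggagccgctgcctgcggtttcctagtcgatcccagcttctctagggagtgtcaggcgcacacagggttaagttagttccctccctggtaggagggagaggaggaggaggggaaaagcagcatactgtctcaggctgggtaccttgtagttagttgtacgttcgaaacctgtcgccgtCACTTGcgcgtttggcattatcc
AOX1: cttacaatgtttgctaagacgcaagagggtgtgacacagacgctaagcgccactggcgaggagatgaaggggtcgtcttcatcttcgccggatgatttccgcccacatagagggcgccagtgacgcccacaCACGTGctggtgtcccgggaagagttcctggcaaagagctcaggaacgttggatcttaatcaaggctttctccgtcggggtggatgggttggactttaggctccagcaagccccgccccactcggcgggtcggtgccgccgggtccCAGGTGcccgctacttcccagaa

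The CCDC80 window held 1 such match (CAAATG), MAMDC2 had 0, FLRT2 had 2 (CACGTG and CACTTG) and AOX1 had 2 (CACGTG and CAGGTG). Of the 97 genes, 75 had an entry in the table. At least 1 CANNTG was present in 52 of these, or 69.3%, against 68.9% of all 27305 windows. The form CAGCTG was present in 18 of the 75 (24%) against 17.7% of all, and CACCTG or its reverse complement CAGGTG in 9 (12%) against 20.6%. A match is a run of letters and not measured binding, and no match says only that these letters are not in this window.

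The values that follow are linear array signals, given from the control siRNA array to the ID1 siRNA array of the same line and stimulus. Beside them stands the mean log2 change over the 4 pairs with its SD over those pairs. These changes chose the genes, so they are described and not tested. Over the 97 genes the mean change had a median of 1.08 and ran from 0.67 to 2.66, while the median over all genes past the filter was 0.03. At least 2-fold in all 4 pairs were 13 genes, 22 reached 2-fold in no pair, and 27 reached 4-fold in at least 1. Among all genes past the filter 0.128% were 2-fold higher in every pair.

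**Figure D1:**
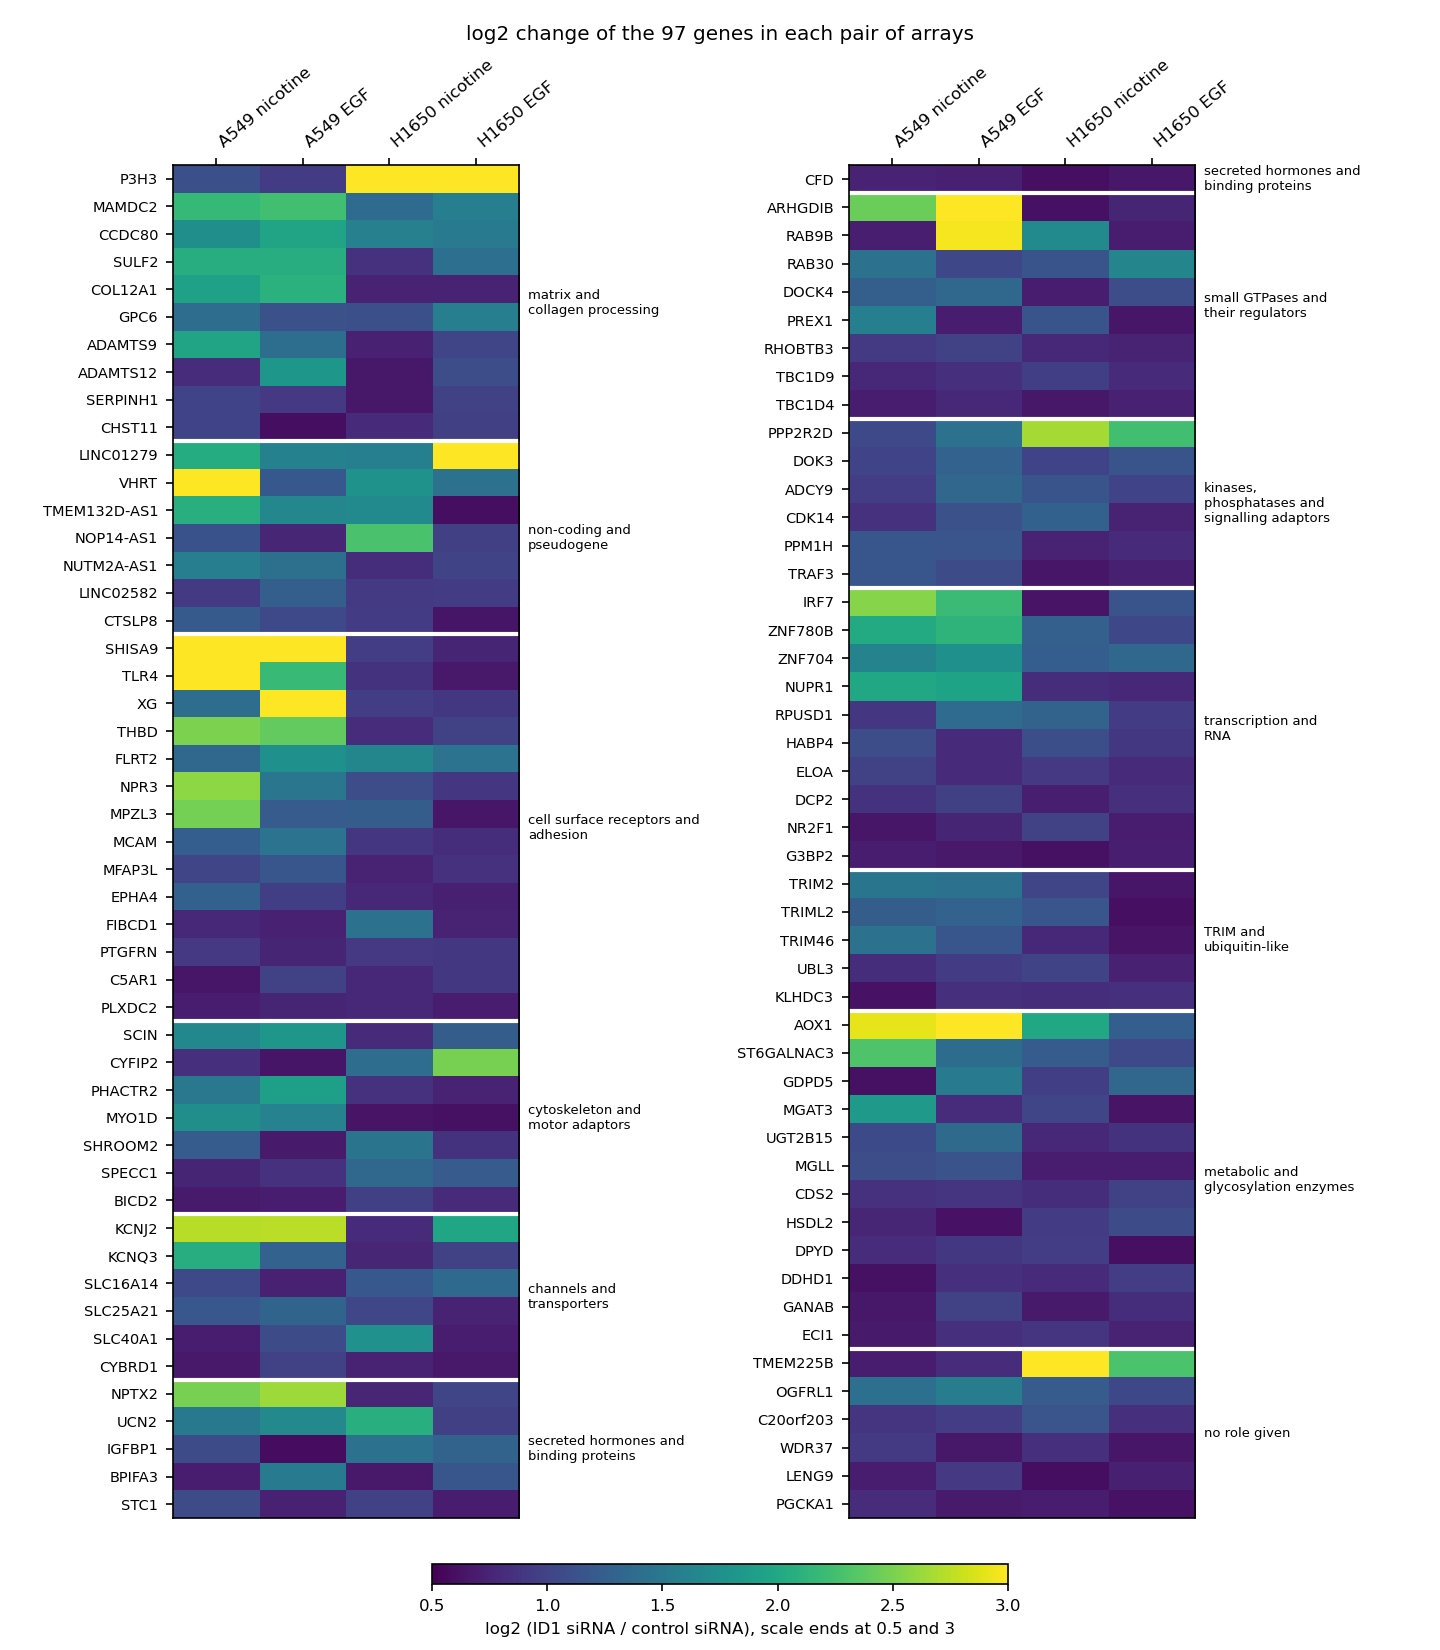
Colour gives the log2 ratio of ID1 siRNA to control siRNA for each of the 97 genes (rows, grouped by role) in each of the 4 pairs of arrays (columns), on a scale from 0.5 to 3. Every cell is at or above 0.585 by the choice of genes, and SHISA9, TLR4, ARHGDIB and THBD are brightest in the A549 columns, whereas P3H3, PPP2R2D and TMEM225B are brightest in the H1650 columns. Those of SHISA9, TLR4, P3H3 and TMEM225B are over control signals under the array median.

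A group of 10 genes acts on the matrix and on collagen, with a median mean log2 change of 1.34. CCDC80, a secreted protein that associates with matrix, was among the most even of them. Its signal went from 154 to 515 with nicotine and from 111 to 429.7 with EGF in A549, and from 399.6 to 1201 with nicotine and from 342 to 998 with EGF in H1650. The 4 changes gave a mean of 1.71 ± 0.19, and in both lines the ID1 siRNA arrays were well apart from the stimulated controls. On the unstimulated controls CCDC80 had 623 in A549, above the ID1 siRNA arrays of that line, and 347 in H1650, close to the controls. LINC01279, the probe set that RefSeq counts to the same gene, went from 122 to 502 with nicotine and from 95.1 to 289 with EGF in A549. In H1650 it was dim, and went from 42.6 to 127 with nicotine and from 2.37 to 101 with EGF, so that its mean of 2.66 ± 1.85 includes a change from a control signal of 2.37.

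MAMDC2 encodes a secreted proteoglycan. In H1650 its signal was high and went from 1214 to 3148 with nicotine and from 1035 to 3066 with EGF. In A549 it went from 35 to 157 with nicotine and from 38.3 to 181 with EGF, with both controls under the array median, so the A549 changes are at least 2.41-fold and 2.96-fold when the controls are set at that median. SULF2, an extracellular enzyme that removes sulfate from heparan sulfate, went from 460.2 to 1916 with nicotine and from 387 to 1616 with EGF in A549 and from 739.9 to 1344 with nicotine and from 386 to 1026 with EGF in H1650. The change of SULF2 was thus 4.17-fold in A549 and 2.2-fold in H1650 on average. GPC6, a glypican that carries such heparan sulfate chains, went from 482 to 1270.5 with nicotine and from 414 to 899.9 with EGF in A549 and from 239 to 517 with nicotine and from 174 to 515 with EGF in H1650, with a mean of 1.30 ± 0.22. Its 4 changes were close to each other, between 1.11 and 1.57.

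COL12A1, the chain of a collagen that lies on fibrils, differed between lines in its change. It went from 222 to 847 with nicotine and from 152 to 649.8 with EGF in A549, against from 648 to 1079.7 with nicotine and from 464 to 777 with EGF in H1650. P3H3, a hydroxylase of collagen prolines, had the opposite order: from 158 to 339 with nicotine and from 175 to 333 with EGF in A549, and from 10.7 to 107 with nicotine and from 9.36 to 91.7 with EGF in H1650. The H1650 controls of P3H3 are far below the array median, and set at that median they give at least 1.35-fold and 1.24-fold, against 2.15-fold and 1.91-fold in A549, so the reverse order rests on signals below the array median. SERPINH1, the chaperone of collagen folding, was bright on all arrays and went from 1690.4 to 3390.1 with nicotine and from 1653 to 3121 with EGF in A549 and from 4056 to 6428 with nicotine and from 2996 to 5917 with EGF in H1650. The secreted metalloproteases ADAMTS9 and ADAMTS12 and the chondroitin sulfotransferase CHST11 complete the group, with mean changes of 1.28 ± 0.53, 1.10 ± 0.52 and 0.84 ± 0.19. ADAMTS9 was under the array median on 3 A549 arrays and ADAMTS12 on 3 H1650 arrays. Each has another probe set past the signal filter, which did not follow the kept one. For ADAMTS9 it changed by 0.39 and -0.22 in A549 and by -0.15 and 0.19 in H1650. For ADAMTS12 it changed by -0.09 and 0.64 in A549 and by 0.05 and 0.29 in H1650.

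**Figure D2:**
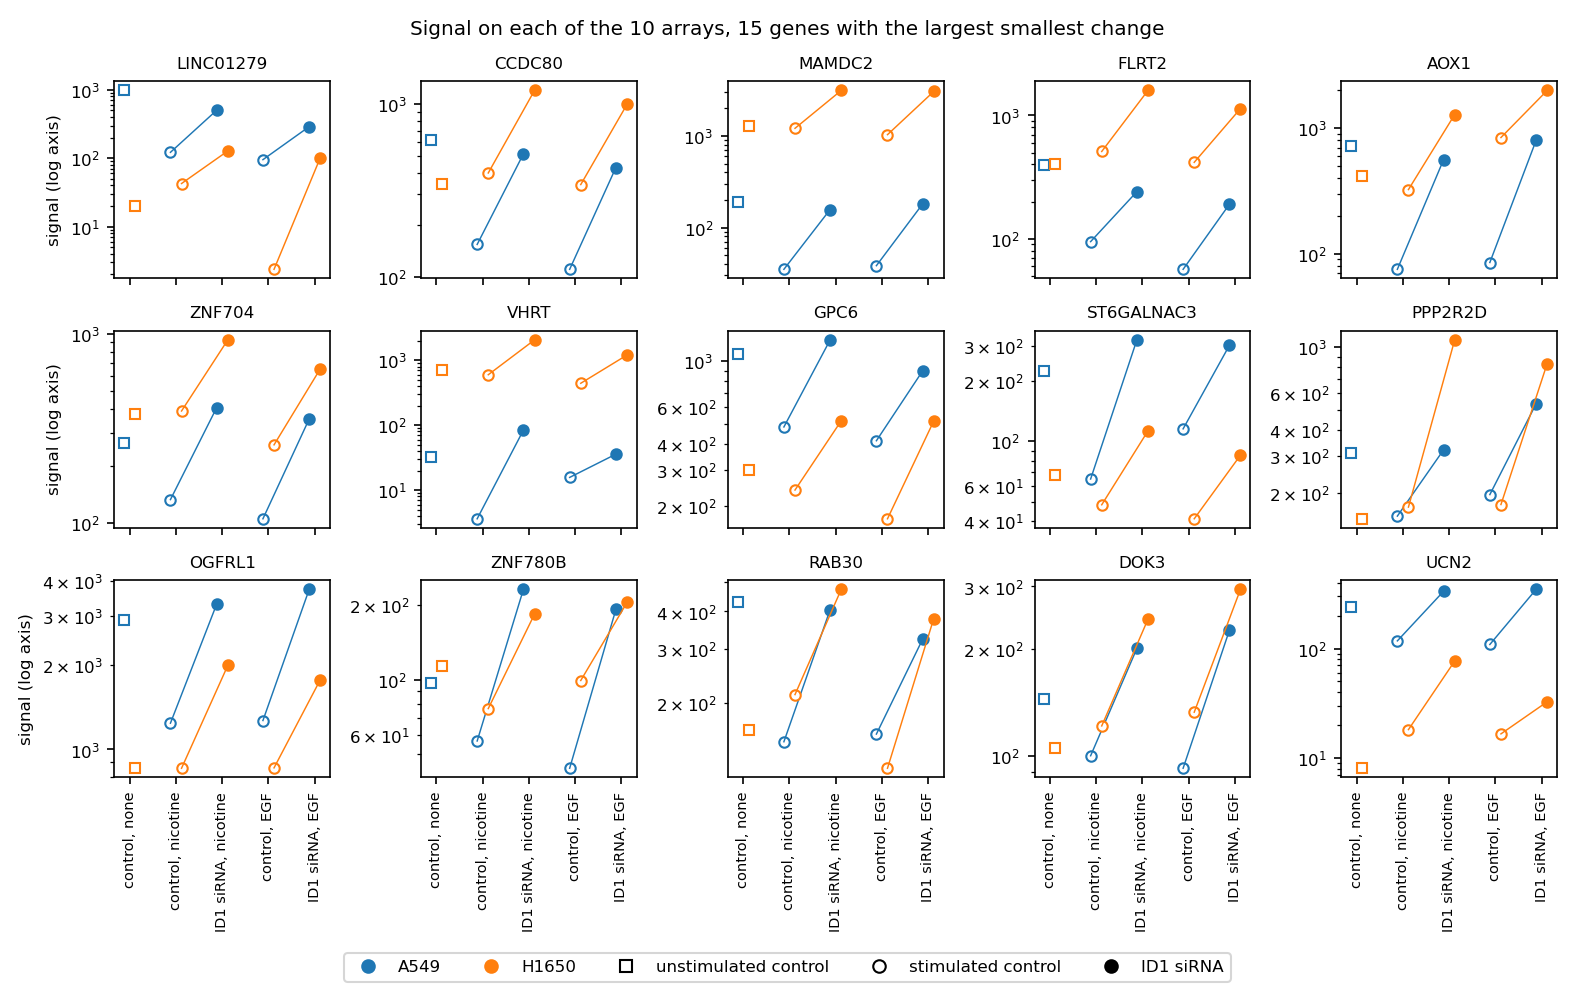
Signal (log axis, a separate range per gene) on each of the 10 arrays for the 15 genes whose smallest change was largest, with A549 in blue and H1650 in orange; squares are unstimulated controls, open circles stimulated controls and filled circles ID1 siRNA arrays, and lines join the matched pairs. For CCDC80 and RAB30 the blue square lies level with or above the blue filled circles, while the orange square lies with the orange open circles.

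Hormones and other secreted proteins make up 6 genes, of which 4 had at least 1 stimulated array under the array median. STC1, the glycoprotein hormone stanniocalcin, was bright throughout and went from 486 to 1027 with nicotine and from 975 to 1616 with EGF in A549 and from 1909.7 to 3772 with nicotine and from 2643 to 4250.4 with EGF in H1650. In both lines its EGF control was above its nicotine control. IGFBP1, which binds insulin-like growth factors, was very bright in A549, where it went from 5506 to 11531 with nicotine and from 9626 to 14453 with EGF. In H1650 it stayed under the array median on all 5 arrays, with signals from 18.1 to 48.9 with nicotine and from 19.6 to 48.2 with EGF, so no fold is given there. UCN2, a peptide of the corticotropin-releasing hormone family, went from 118 to 334 with nicotine and from 109 to 348 with EGF in A549, and in H1650 it too lay under the array median on all 5 arrays, with signals from 18.2 to 76.9 with nicotine and from 16.6 to 32.6 with EGF. NPTX2, a pentraxin known from synapses, had the opposite distribution. It went from 749 to 1272 with nicotine and from 499 to 1018 with EGF in H1650 and lay below the array median on every A549 array. CFD, the protease that activates the alternative complement pathway, had small and even changes of 0.68 ± 0.06, and BPIFA3 stood at 1.02 ± 0.41 on dim signals.

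Among 14 receptors and adhesion proteins the mean change had a median of 1.25. FLRT2, an adhesion protein that binds latrophilins, went from 94.5 to 241 with nicotine and from 56.3 to 189.8 with EGF in A549 and from 509.9 to 1597 with nicotine and from 416 to 1138 with EGF in H1650, with a mean of 1.55 ± 0.18. Its change was 1.55 on average in A549 and 1.55 in H1650. THBD, the receptor that turns thrombin to anticoagulant activity, was far brighter in A549. There it went from 947 to 5399.7 with nicotine and from 1034 to 5459.8 with EGF, a 5.49-fold change, while in H1650 it went from 55.2 to 97 with nicotine and from 67 to 133 with EGF, around the array median. NPR3, which clears natriuretic peptides, went from 113 to 674 with nicotine and from 224 to 625 with EGF in A549 and from 514 to 1098 with nicotine and from 570.2 to 1061 with EGF in H1650. MCAM, an adhesion molecule of the immunoglobulin family, went from 167 to 396 with nicotine and from 142 to 389 with EGF in A549 and from 234 to 435 with nicotine and from 177 to 314 with EGF in H1650, so its 4 ID1 siRNA arrays lay above all 4 stimulated controls. A dimmer MCAM probe set that also passed the signal filter had log2 changes of 0.59 and 1.06 in A549. In H1650 it was lower, by -0.66 with nicotine and -0.42 with EGF.

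Receptors of innate immunity were present as well. TLR4, which senses lipopolysaccharide, went from 14.3 to 156 with nicotine and from 35 to 159 with EGF in A549, where its controls were under the array median and the change is at least 2.39-fold and 2.6-fold. In H1650 it went from 113 to 206 with nicotine and from 132 to 210.3 with EGF. C5AR1, the receptor of a complement fragment, was dim in both lines and went from 86.7 to 136 with nicotine and from 99.3 to 198 with EGF in A549 and from 109.7 to 188 with nicotine and from 61.4 to 115 with EGF in H1650. SHISA9, a membrane protein that regulates glutamate receptors, had the largest mean change in A549 of all 97, 4.06. That value comes from controls of 13.2 and 5.18, and with the array median in their place the changes are at least 1.79-fold and 2.66-fold. In H1650, where SHISA9 is bright, it went from 1027 to 1991 with nicotine and from 988 to 1669.9 with EGF. The other SHISA9 probe set past the signal filter was not higher in H1650. It went from 484 to 440 with nicotine and from 413 to 400 with EGF, log2 changes of -0.14 and -0.05. XG showed a like imbalance between lines, with A549 signals under the array median on all 5 arrays. Its H1650 signals went from 220.0 to 427 with nicotine and from 261 to 489.6 with EGF. FIBCD1 and MFAP3L stood at 0.92 ± 0.34 and 0.95 ± 0.19. MPZL3 went from 364 to 857 with nicotine and from 536 to 841 with EGF in H1650, and in A549 its controls were under the array median and the change is at least 1.66-fold and 1.87-fold. PLXDC2 went from 550.4 to 948 with nicotine and from 367 to 596 with EGF in H1650 and lay under the array median on all 5 A549 arrays, so no fold is given there. PTGFRN, a partner of tetraspanins, was bright and even, at 0.87 ± 0.08, and the ephrin receptor EPHA4 stood at 0.94 ± 0.25.

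Of 6 channels and transporters, 2 handle iron. SLC40A1 (ferroportin), the iron exporter of cells, went from 1194 to 1928 with nicotine and from 833 to 1757 with EGF in A549, and in H1650 it lay under the array median on all arrays but the ID1 siRNA array with nicotine (126). CYBRD1, a ferric reductase, went from 1363 to 2171 with nicotine and from 1188 to 2346 with EGF in A549 and from 548.7 to 919 and from 344 to 547 in H1650. The potassium channel KCNJ2, an inward rectifier, went from 126 to 837 with nicotine and from 116 to 774 with EGF in A549, a mean change of 6.66-fold. In H1650 its signals were all under the array median. KCNQ3, a voltage-gated potassium channel, went from 119 to 496 with nicotine and from 147 to 358 with EGF in A549 and from 365 to 620.4 with nicotine and from 376 to 751 with EGF in H1650. The remaining pair are the mitochondrial carrier SLC25A21 (1.06 ± 0.24), under the array median on 4 of 5 H1650 arrays, and the carrier SLC16A14 (1.08 ± 0.26).

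Small GTPases and their regulators gave 8 genes. ARHGDIB went from 116 to 628 with nicotine and from 74.1 to 673 with EGF in A549 but from 3720.0 to 5693 with nicotine and from 3233 to 5480.0 with EGF in H1650, a mean of 7.01-fold against 1.61-fold. In H1650 it was bright already in the controls. RAB30, a Golgi GTPase, went from 149 to 406 with nicotine and from 158 to 324 with EGF in A549 and from 213 to 473 with nicotine and from 122 to 379 with EGF in H1650. DOCK4, an exchange factor of Rac and Rap, went from 926 to 2212 with nicotine and from 1122 to 2831 with EGF in A549 and from 236 to 381 with nicotine and from 384 to 816 with EGF in H1650, where the EGF arrays were brighter than the nicotine arrays. PREX1, another exchange factor of Rac, stood at 1.02 ± 0.44, and RAB9B went from 104 to 335 with nicotine and from 192 to 312 with EGF in H1650 and lay under the array median on all 5 A549 arrays. TBC1D9 (0.85 ± 0.08), TBC1D4 (0.71 ± 0.05), which acts on Rabs in insulin-driven glucose transporter traffic, and RHOBTB3 (0.86 ± 0.11) had small changes with little spread between pairs.

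The 6 kinases, phosphatases and adaptors include PPP2R2D, a regulatory subunit of phosphatase 2A. Its signal went from 155 to 321 with nicotine and from 196 to 534 with EGF in A549 and from 171 to 1081 with nicotine and from 176 to 833 with EGF in H1650, so it was 2.38-fold and 5.48-fold higher. ADCY9, an adenylyl cyclase, went from 366 to 707 with nicotine and from 330.4 to 830.3 with EGF in A549 and from 238 to 527 with nicotine and from 240.1 to 481 with EGF in H1650, and DOK3, an adaptor of tyrosine kinase signalling, went from 100.0 to 201 with nicotine and from 92.2 to 226 with EGF in A549 and from 121 to 243 with nicotine and from 133 to 294 with EGF in H1650. Both had 4 similar changes, with means of 1.11 ± 0.17 and 1.11 ± 0.14. TRAF3, an adaptor that restrains non-canonical NF-kB signalling, went from 1099 to 2464 with nicotine and from 966 to 2044 with EGF in A549 and from 661 to 1036 with nicotine and from 584 to 959 with EGF in H1650. The phosphatase PPM1H and the kinase CDK14 stood at 0.97 ± 0.23 and 1.00 ± 0.24.

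Among 7 cytoskeletal proteins and motor adaptors, PHACTR2, a regulator of actin and of protein phosphatase 1, went from 1100.4 to 3121 with nicotine and from 799 to 2996 with EGF in A549 and from 1798 to 3259 with nicotine and from 1961 to 3283 with EGF in H1650. Its change was 3.26-fold in A549 and 1.74-fold in H1650. SCIN, which severs actin filaments, was dim and stood at 1.38 ± 0.46. BICD2, a dynein adaptor, went from 1527 to 2453 with nicotine and from 1455 to 2352 with EGF in A549 and from 933 to 1829 with nicotine and from 1105 to 1920.1 with EGF in H1650, with 4 changes that differed little (0.79 ± 0.13). MYO1D was 1.54-fold higher in H1650, and in A549, with both controls under the array median, at least 1.69-fold and 2.44-fold. SPECC1 was 1.75-fold higher in A549 and 2.42-fold in H1650 on the kept probe set. In H1650 both its other probe sets past the signal filter were lower, with log2 changes of -0.39 and -0.70 with nicotine and -0.63 and -0.02 with EGF. CYFIP2, a subunit of the WAVE complex that drives actin branching, was under the array median on all H1650 arrays and went from 677 to 1213 with nicotine and from 649 to 1014 with EGF in A549. SHROOM2 stood at 1.06 ± 0.35.

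Enzymes of metabolism and glycosylation form a group of 12, with a median mean change of 0.90. AOX1, an aldehyde oxidase, had the largest mean change of them. It went from 74.8 to 561 with nicotine and from 84.8 to 799 with EGF in A549 and from 324 to 1285 with nicotine and from 843 to 2002 with EGF in H1650, or 8.41-fold and 3.07-fold. CDS2, which makes the precursor of phosphatidylinositol, went from 1345 to 2434 with nicotine and from 1326 to 2459 with EGF in A549 and from 577 to 1024 with nicotine and from 554 to 1106 with EGF in H1650, and its 4 changes spanned only 0.83 to 1.00. MGLL, the lipase that breaks down monoacylglycerols, went from 781 to 1667 with nicotine and from 826 to 1814 with EGF in A549 and from 2234 to 3628 with nicotine and from 2514 to 4089 with EGF in H1650. Other members with small, even changes were DPYD (0.82 ± 0.16), the first enzyme of pyrimidine breakdown, ECI1 (0.79 ± 0.09) of fatty acid oxidation, HSDL2 (0.85 ± 0.20), the phospholipase DDHD1 (0.80 ± 0.14) and GANAB (0.79 ± 0.15), the glucosidase subunit that trims glycoproteins in the endoplasmic reticulum. The sialyltransferase ST6GALNAC3 went from 64.8 to 321 with nicotine and from 115 to 301 with EGF in A549 and from 48.2 to 113 with nicotine and from 41 to 85.3 with EGF in H1650, where both controls were under the array median. ST6GALNAC3 (1.49 ± 0.56), MGAT3 (1.08 ± 0.54), which adds the bisecting sugar of N-glycans, GDPD5 (1.11 ± 0.40) and UGT2B15 (1.02 ± 0.26), a glucuronosyltransferase with close paralogs, varied more.

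Transcription and RNA factors gave 10 genes, of which 8 were above the array median on all 8 stimulated arrays. NUPR1, a small chromatin protein induced by stress, went from 194 to 773 with nicotine and from 152 to 587 with EGF in A549 and from 265 to 470.1 with nicotine and from 129.9 to 224 with EGF in H1650, so in H1650 each EGF array was lower than the nicotine array of the same siRNA. ZNF704, a zinc finger factor, went from 133 to 407 with nicotine and from 105 to 354 with EGF in A549 and from 390.4 to 928 with nicotine and from 259 to 652 with EGF in H1650. NR2F1, a nuclear receptor, went from 1639 to 2575 with nicotine and from 1293 to 2194 with EGF in A549 and from 772 to 1528 with nicotine and from 620.0 to 1002 with EGF in H1650. IRF7, the factor that drives interferon production, was the only member on the interferon list. It went from 471 to 2749 with nicotine and from 963 to 4442 with EGF in A549, but on all H1650 arrays it lay under the array median, between 12.5 and 39.2, so no fold is given there. ELOA (0.87 ± 0.09), an elongation factor subunit, DCP2 (0.85 ± 0.11), which removes messenger RNA caps, and G3BP2 (0.67 ± 0.05), a stress granule protein, were bright and even. G3BP2 went from 4459 to 7206 with nicotine and from 4522 to 7218 with EGF in A549 and from 4638 to 7069 with nicotine and from 5105 to 8375 with EGF in H1650. ZNF780B, a zinc finger protein, went from 56.6 to 231 with nicotine and from 43.9 to 192 with EGF in A549 and from 76.4 to 183 with nicotine and from 99.1 to 204 with EGF in H1650. ZNF780B, RPUSD1 and HABP4 stood at 1.62 ± 0.54, 1.13 ± 0.24 and 0.98 ± 0.15.

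The last groups are smaller. TRIM2, TRIM46 and TRIML2 of the tripartite motif family, UBL3 and KLHDC3, a substrate receptor of a cullin ubiquitin ligase, had mean changes between 0.78 and 1.15. TRIM2, a ubiquitin ligase known from neurons, went from 197 to 548 with nicotine and from 136 to 370.5 with EGF in A549 and from 2268 to 4622 with nicotine and from 2079 to 3259 with EGF in H1650. Beside LINC01279, the non-coding RNAs are VHRT, LINC02582, NUTM2A-AS1, TMEM132D-AS1 and NOP14-AS1, of which NUTM2A-AS1 stood at 1.21 ± 0.35 with its A549 controls under the array median. CTSLP8 (0.96 ± 0.24) is a pseudogene whose probe set may also read its parent family. LINC02582 went from 1414 to 2679 with nicotine and from 1001 to 2388 with EGF in A549 and reached only 9.68 in H1650. VHRT went from 598 to 2056 with nicotine and from 442 to 1203 with EGF in H1650, and in A549 it was above the array median only on the ID1 siRNA array with nicotine (83.8). For OGFRL1, C20orf203, WDR37, TMEM225B, PGCKA1 and LENG9 no role is given, and OGFRL1 had the largest smallest change of them. OGFRL1 went from 1242 to 3304 with nicotine and from 1269 to 3729.7 with EGF in A549 and from 857 to 1995 with nicotine and from 859.8 to 1774 with EGF in H1650, and its mean was 1.31 ± 0.22. TMEM225B went from 263 to 424 with nicotine and from 274 to 482 with EGF in A549 and from 13.2 to 156 with nicotine and from 14.1 to 69.4 with EGF in H1650, where both controls and the ID1 siRNA array with EGF were under the array median. C20orf203, WDR37 and LENG9 stood at 0.95 ± 0.14, 0.77 ± 0.13 and 0.73 ± 0.13. PGCKA1 went from 442 to 714 with nicotine and from 315 to 485 with EGF in H1650 and lay under the array median on all 5 A549 arrays.

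The changes were larger in A549 for 67 of the 97 genes and larger in H1650 for 30. The median of the mean change was 1.13 in A549 and 0.89 in H1650, while over all genes past the filter it was 0.05 and -0.01. The changes chose these genes, and the split by line was not counted over all genes past the filter. With each array centred on its median the counts were 45 and 52 and the medians 0.84 and 0.84, so the excess in A549 is absent on that scale. The smallest of the 4 changes was in an H1650 pair for 67 genes, 32 with nicotine and 35 with EGF. At least 1.5-fold higher among all genes past the filter were 13.8% in the A549 nicotine pair, 19.1% in the A549 EGF pair, 7.94% in the H1650 nicotine pair and 8.55% in the H1650 EGF pair. The SD over the pairs was under 0.20 for 29 of the genes whose 8 stimulated arrays were all at or above the array median, among them G3BP2, TBC1D4, CFD, CDS2 and PTGFRN. Just inside the threshold were IGFBP1 (smallest change 0.59), LENG9 (0.59), TMEM132D-AS1 (0.59), CHST11 (0.59) and TRIML2 (0.60), and just outside PLXNA1 (0.58), IFRD1 (0.58), TCF7L1 (0.58), DAB2 (0.58) and COL4A1 (0.58).

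The fold rule divides by the stimulated controls, so the choice favours genes with low signals there. The baseline signal of the 97 genes was lower than that of most genes past the filter, with a median control signal of 251 on the 4 stimulated controls against 741 over all such genes. At least 1 stimulated control lay under the array median for 42 of them, or 43.3%, against 13.4% of all genes past the filter. Both A549 controls were under it for 17 genes and both H1650 controls for 18. All 8 stimulated arrays were at or above the array median for 55 genes. The array median itself was 78.5 and 75.9 on the A549 ID1 siRNA arrays against 65.2 and 61.2 on their controls, and centring each array on its median left 49 of the 97. Quantile normalization left 73 and adding 16 to each signal left 78. Under all 3 settings, and with all 8 stimulated arrays at or above the array median, 26 genes met the rule. They are ADCY9, AOX1, ARHGDIB, CCDC80, COL12A1, DCP2, DOCK4, DOK3, GPC6, KCNQ3, MCAM, MFAP3L, MGLL, NPR3, NUPR1, OGFRL1, PHACTR2, PPM1H, PPP2R2D, RAB30, RHOBTB3, RPUSD1, SERPINH1, SULF2, TRAF3 and ZNF704. Only 11 of these 26 also met the rule with the mean of all probe sets of the gene, dim ones included.

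The difference in level between the lines did not enter the fold rule, but the signal filter used the mean of both lines. Of the 97 genes, 74 reached the filter in each line and 23 only through the line where they were high, so that for these 23 a difference follows from the choice and is given with no test. Among the 74, THBD had a geometric mean signal over the 5 arrays of 2742 in A549 and 78.1 in H1650, where 3 of 5 arrays were under the array median, a log2 difference of 5.13 ± 0.35 (limma SE, adjusted p = 4.79e-06). DOCK4 was higher in A549 by 2.47 ± 0.37 (limma adjusted p = 0.000485). ARHGDIB differed by -3.71 ± 0.46 (adjusted p = 0.000153) and TRIM2 by -3.34 ± 0.15 (adjusted p = 4.14e-07), A549 minus H1650 in the limma fit, so both were higher in H1650. MAMDC2, with 2 of 5 A549 arrays under the array median, had 93.9 in A549 and 1732 in H1650.

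Among the 23, IGFBP1 was at least 117-fold higher in A549, LINC02582 at least 22-fold, IRF7 at least 18.6-fold and CYFIP2 at least 12.02-fold. NPTX2 was at least 12.1-fold higher in H1650 and PLXDC2 at least 8.74-fold. In these at-least values the dim line lay under the array median on all 5 arrays and was set at it. SLC40A1 had 1397 in A549 and 61.8 in H1650, where 4 of 5 arrays were under the array median. SHISA9 had 1338 in H1650 and 36.3 in A549, where 3 of 5 arrays were under it.

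In all, limma called 35 of the 97 higher in A549 and 33 lower, or 36.1% and 34.0%. Among all 12514 genes 30.9% were called higher and 32.2% lower. Of the 74 that reached the filter in each line, 22 were called higher and 24 lower, or 29.7% and 32.4%. Among all 11542 such genes it was 30.5% and 31.2%, so the shares of the members are near those of all genes. G3BP2 (0.02 ± 0.12), MCAM (0.05 ± 0.21), GANAB (-0.08 ± 0.11) and TRIM46 (-0.04 ± 0.16) are examples that were not called and had small errors. The spread behind these tests is how far the line difference varied over the 5 conditions, since no condition was repeated, and it may be smaller than that between cultures.

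**Figure D3:**
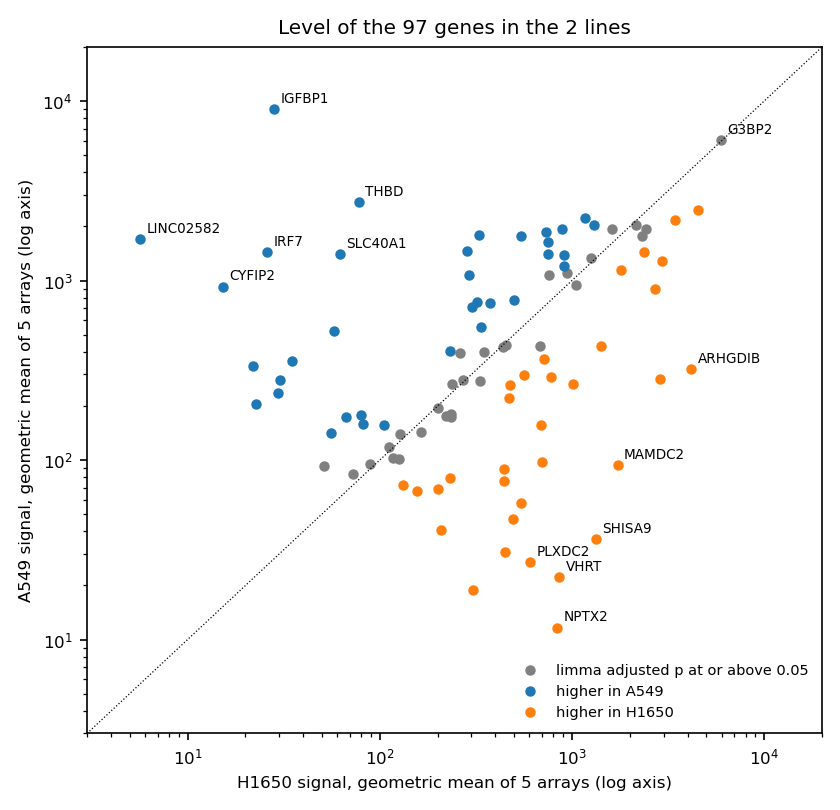
Geometric mean signal of each of the 97 genes over the 5 arrays of A549 (vertical) and of H1650 (horizontal), both on log axes, with the dotted line at equal level. Blue genes were called higher in A549, orange genes higher in H1650 and grey genes not called by limma. For the 23 genes that reached the filter through 1 line only the colour is no test, since their difference follows from the choice. Of these, IGFBP1 and LINC02582 lie far above the line and NPTX2, VHRT and SHISA9 far below it.

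EGF and nicotine gave no called difference among these genes. Limma called 0 of the 97 and 0 of all 12514 genes for EGF against nicotine with control siRNA, and likewise 0 with ID1 siRNA. At an unadjusted p under 0.05 there were 3 of the 97 (3.09%) and 377 of all genes (3.01%) with control siRNA, and 1 (1.03%) and 151 (1.21%) with ID1 siRNA. Averaged over both siRNAs, with 0 calls, it was 8 (8.25%) and 412 (3.29%). The median standard error of a member was 0.35 on the log2 scale within a siRNA, which limits what could be called. The median difference of the 97 was -0.11 with control siRNA and -0.12 with ID1 siRNA. Whether the difference between the stimuli was itself unequal in A549 and H1650 was also examined, and limma called 0 of the 97 against 10 of all genes, 8 higher (0.0639%) and 2 lower (0.016%) in A549.

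The unstimulated control arrays stand outside the choice of genes, but they are set here against stimulated controls that the choice did use. In A549 the unstimulated signal was above both stimulated controls for 91 of the 97 genes, against 37.6% of all genes past the filter. It was at least 1.5-fold above their mean for 79 genes (10.3% of all genes) and at least 1.5-fold below for 1, PLXDC2 (5.05%). It was below both stimulated controls for 2 (37.2%), between the stimulated controls and the ID1 siRNA arrays for 47 (13.3%) and below both ID1 siRNA arrays for 53 (39.5%). The median log2 difference was 0.93. In H1650 the unstimulated signal was above both stimulated controls for 50 of the 97 (33.6% of all genes), at least 1.5-fold above their mean for 13 (2.73%) and at least 1.5-fold below for 2 (2.62%), and the median log2 difference was 0.19. It was below both stimulated controls for 13 (27.9%), between them and the ID1 siRNA arrays for 42 (8.09%) and below both ID1 siRNA arrays for 88 (36.7%). Since the genes were chosen for low stimulated controls, these shares are no independent evidence. ARHGDIB and AOX1 show the contrast between lines. ARHGDIB had 937 on the unstimulated A549 array, above its ID1 siRNA arrays at 628 and 673, and 3433 on the H1650 one, among its controls. AOX1 had 720.5 and 413, the first near the A549 ID1 siRNA arrays and the second within the range of the H1650 stimulated controls.

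Among the genes with the largest smallest change, FLRT2 had 399 on the unstimulated A549 array and 401 on the H1650 one, and LINC01279 had 978 and 19.7. Both were thus above their A549 ID1 siRNA arrays and under the H1650 control with nicotine. MAMDC2 had 191 in A549 and 1285 in H1650, GPC6 1086 and 298, and PPP2R2D 309.6 and 150.2. RAB30 had 431 and 163. In A549 the values of MAMDC2 and RAB30 were above both ID1 siRNA arrays, that of GPC6 was between its ID1 siRNA arrays, and that of PPP2R2D was between its controls and its ID1 siRNA arrays. ZNF704 (264 and 375), OGFRL1 (2897 and 862), DOK3 (144 and 105), ST6GALNAC3 (224 and 68.1), ZNF780B (96.8 and 113), UCN2 (241 and 8.04) and VHRT (32.6 and 719) lay in A549 between their stimulated controls and their ID1 siRNA arrays. In A549, THBD at 5364 and NPR3 at 595 lay close to their ID1 siRNA arrays, whereas KCNJ2 at 449 lay between controls and ID1 siRNA arrays and IRF7 at 1090.3 lay nearer to its EGF control.

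Genes outside this set that were chosen on the same contrast within a line were placed likewise. Of 1069 other genes at least 1.5-fold higher with ID1 siRNA in both A549 pairs, 914 (85.5%) had the unstimulated A549 array above both stimulated controls, against 37.6% of all genes past the filter. Of 287 other genes so chosen in H1650, 173 (60.3%) had the unstimulated H1650 array above both, against 33.6%. These genes too were chosen for low stimulated controls, so their shares are no independent evidence. Set against the unstimulated control in place of the stimulated one, 41 of the 12514 genes met the rule, left-out genes not counted. Of the 97, which were chosen on the same ID1 siRNA arrays, 5 were still at least 1.5-fold higher on all 4 of them: ZNF780B, MPZL3, IGFBP1, CTSLP8 and TMEM132D-AS1. For IGFBP1 the H1650 signals behind this are all under the array median, so only its A549 arrays bear it out. MPZL3 was under the array median on 3 of 5 A549 arrays and TMEM132D-AS1 on 3 of 5 H1650 arrays. Another probe set of TMEM132D-AS1 past the signal filter had 61.3 on the unstimulated H1650 array. It had 57.0 with nicotine and 60.6 with EGF on the H1650 ID1 siRNA arrays. Within H1650 alone both ID1 siRNA arrays were at least 1.5-fold above the unstimulated control for 56 of the 97 (4.01% of all genes), and within A549 for 13 (5.51%). ID1 itself had the low signal of 1645 on the unstimulated A549 array, and with 1 array this level and the missing stimulus cannot be told apart.

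**Figure D4:**
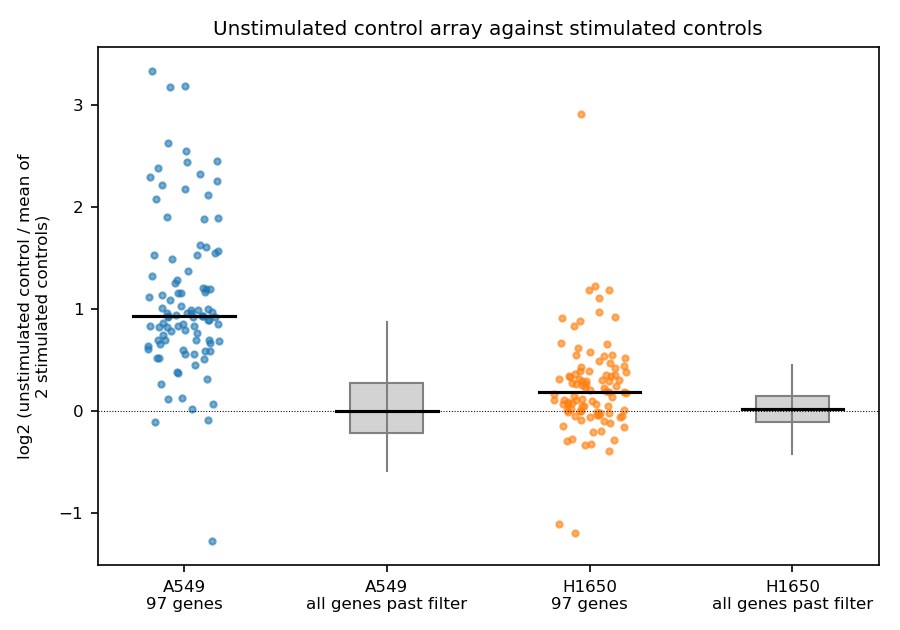
Log2 ratio of the unstimulated control array to the mean of the stimulated controls in A549 and H1650, with a point for each of the 97 genes and the median as a line (0.93 and 0.19), beside all genes past the filter as a box from the 25th to the 75th percentile with whiskers from the 5th to the 95th. The A549 points lie mostly above the box and the H1650 points mostly near it.

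Other probe sets give a further look at the same arrays, though not an independent one. Of the 97 genes 70 had another probe set, and 54 had at least 1 that passed the signal filter, 84 probe sets in all. Of these 84, 50 (59.5%) were above 0 in all 4 pairs, against 19.1% of 10637 such probe sets over all genes, and 14 (16.7%) were at least 1.5-fold in all 4, against 1.10%. Their mean change had a median of 0.56, against 0.08 over all. For SULF2 the other bright probe set changed by 2.09 and 1.76 in A549 and 1.20 and 1.35 in H1650, for ZNF704 by 1.92 and 2.12 in A549 and 1.89 and 1.22 in H1650 and for GDPD5 by 1.27 and 1.85 in A549 and 1.16 and 1.72 in H1650. CCDC80 had 1.26 and 1.20 in A549 and 1.37 and 0.68 in H1650 on its other bright probe set, and AOX1 had 2.24 and 2.40 in A549 and 0.90 and 1.22 in H1650. These follow the kept probe sets.

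Other genes were not matched in this way. The other bright probe set of PPP2R2D gave 0.24 and -0.15 in A549 and -0.01 and -0.47 in H1650, and that of UBL3 gave -0.06 and 0.02 in A549 and 0.21 and -0.21 in H1650, both near 0. That of COL12A1 gave 2.76 and 3.41 in A549 but -0.12 and -0.37 in H1650, and both of SPECC1 were below 0 in both H1650 pairs. With the mean of all probe sets, dim ones included, the smallest change was below 0 for 6 of the 40 genes where it was largest, namely GPC6 (-1.01), DOK3 (-0.14), ELOA (-0.48), UGT2B15 (-0.72), NOP14-AS1 (-0.72) and KCNQ3 (-0.36). GPC6, DOK3, UGT2B15 and NOP14-AS1 have no other probe set past the filter, and both other bright probe sets of ELOA were above 0 in all 4 pairs. For 19 of the 54 genes no other bright probe set was above 0 in all 4 pairs, and for 25 every one was. The mean over all probe sets of a gene put 60 genes past the rule, of which 41 were among the 97. Probe sets of a gene can read different transcript ends, and which of them was the better measure was not tested.

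**Figure D5:**
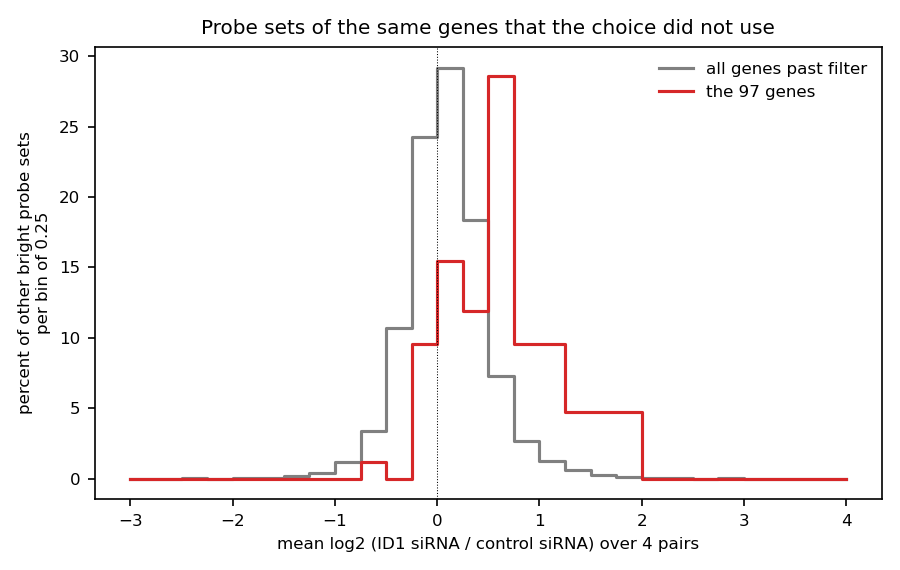
Distribution of the mean log2 change over the 4 pairs for probe sets that were not the kept one but passed the signal filter, as the percent of probe sets per bin of 0.25, for the 97 genes (red, 84 probe sets) and for all genes past the filter (grey, 10637). The red curve lies to the right of the grey one, with medians of 0.56 and 0.08.

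Gene lists of known pathways were set beside all genes past the filter. Of 11 gene lists, the integrated stress list around ATF4 had 1 of 20 tested genes that did so, NUPR1 (5%), and the interferon list 1 of 23, IRF7, or 4.35%, against 0.823% of all genes. The remaining 9 lists had 0, and ID1 was the 1 of the 15 ID and E proteins that was lower throughout. The genes left out of this description are on none of the lists, while the 0.823% counts them. The lists are short, and whether their shares differ from that of all genes was not tested. The mean change over the 4 pairs had medians of 0.15 for the ATF4 list and 1.36 for the interferon list, against 0.03 over all genes. Interferon genes had a median of 3.47 in A549 and -0.87 in H1650, NF-kB and cytokine genes 1.44 and -0.28, TGF-beta and matrix genes 1.26 and 0.06, and cell cycle genes -0.46 and 0.57. These medians are descriptions of 1 array per condition. Lysosome and autophagy genes (0.10) and glycolysis and HIF genes (0.06) had medians near 0 over the 4 pairs. The p53 targets had 0.12 over the 4 pairs, from 0.57 in A549 and -0.33 in H1650.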

How the data were processed

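Transcripts were measured on Affymetrix U133 Plus 2.0 arrays, 10 in all, 1 per line and condition. The authors deposited linear MAS5 signal intensity per probe set (GCOS 1.4 and MAS5 per the submitters' processing notes), scaled to a trimmed mean of 500 as the values show. Log2 was taken here. Of 54675 probe sets, 41097 carried 1 gene symbol, 1801 several, 62 were controls and 11715 had no gene in the platform annotation. Of the first, 41043 matched RefSeq by Entrez identifier. The brightest probe set of each of 19775 genes was kept. Limma 3.58.1 in R 4.3.3 fitted line and condition to the 10 arrays with an intensity trend and Benjamini-Hochberg adjustment over 12514 genes (4 residual degrees of freedom, adjusted p under 0.05). The difference between stimuli across lines was fitted to the 8 stimulated arrays, a test chosen after seeing the data. An at-least fold sets a signal below its array's median at that median. The line contrast of the limma fit was tested on simulated data, and the contrasts of stimuli were not.

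The members and lists were chosen with earlier results of these data known. The rule for names took the 40 genes with the largest smallest change, the 15 largest with signals, those that differed most between lines, and the genes next to the threshold. Others were named, and the role groups made, after their values were seen. Alternatives covered scaling, pseudocount, filter, fold, probe set, reference array, trend and leaving out arrays or pairs. With 1 array per group, errors and p-values measure only the spread between these arrays.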

Additional observations from a re-analysis of the deposited data

How the results depend on the processing

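The number of genes meeting the rule was 97. It was 49 with centring on the array median, 60 with the mean of all probe sets, 254 with no signal filter, 13 at 2-fold, 151 at a log2 of 0.5, and 41 with the unstimulated control as the reference, of which 5 were among the 97. Requiring 3 of the pairs gave 122 to 211, lowest without the A549 EGF pair and highest without the H1650 nicotine pair. With all 8 stimulated signals at or above the array median, chosen after seeing the data, it was 55. Quantile normalization (80), 16 added to the signal (79), the probe set brightest on the unstimulated arrays (100) and a mean log2 signal of 7 or more (72) kept it within 1.5 times. With the mean of all probe sets the smallest change turned negative for GPC6 (-1.01), DOK3 (-0.14), ELOA (-0.48), UGT2B15 (-0.72), NOP14-AS1 (-0.72) and KCNQ3 (-0.36), among the 40 genes examined, and the cause was not tested. The number of members called between lines, with the 23 that reached the filter through 1 line only included, stayed between 62 and 71. For these 23 a call is no test. The number called between stimuli stayed at 0, also with line by siRNA as the block. The unstimulated A549 array was above both stimulated controls for 89 to 91 genes, and the H1650 one for 50 to 58. The count of genes with the larger change in A549 went from 67 to 45 with centring on the array median, an alternative chosen after seeing the data, as was the filter in each line.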
